A study of Mus musculus with 8 samples.

Results

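Ephrins and Eph receptors were followed through cultured endothelial cells of mouse liver, which line the inside of vessels. The members were the 7 genes Efna1, Efnb1, Efnb2, Epha2, Epha4, Ephb2 and Ephb4, found in the table of counts by the Ensembl identifiers that carry these symbols. They are 7 of 22 genes on a list of the whole family and 7 of 52636 genes in the table. All 7 passed the filter on low counts that left 15698 genes for testing, and 17 of the 22 family genes passed it.

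Eph receptors form the largest family of receptor tyrosine kinases, and their ephrin ligands are held on the surface of neighbouring cells, so that signalling needs cell contact. Type A ephrins are tied to the membrane by a lipid anchor, while type B ephrins span it and signal back into the cell that carries them. In blood vessels Efnb2 is a classic marker of arterial endothelium and its receptor Ephb4 of venous endothelium, and contact between the pair helps keep arteries and veins apart.

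Polyadenylated RNA was sequenced from 8 libraries, 2 in each of 4 groups: WT cells and cells the labels call dKO, each as control or after IL1B and TNFA, a pair of inflammatory cytokines. The design text describes deletion of Erg and/or Fli1, genes for endothelial ETS transcription factors, after 48 h of 4-OHT (4-hydroxytamoxifen, which switches on an inducible recombinase). Cells were then kept until 7 days after the first 4-OHT, and cytokines were given for 16 h before lysis. The labels assign 4-OHT to all samples, WT included, and place it in the mice, while the design text places it in the culture medium. They give neither the promoter that drives the recombinase nor the animals' age, and do not say whether replicates are separate animals. The p-values therefore measure the spread between these libraries. Xist, given beside Efnb1 below, set replicate 1 apart from replicate 2 in every group. The cells had been sorted as live, CD45-negative, CD31-positive and VE-cadherin-positive.

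Library totals ran from 23009062 to 26944030 counts. As a check of the labels, Erg stood at 186 to 208 CPM (counts scaled to library size) in the 4 WT libraries, while in dKO cells it reached 34.7 and 40.1 CPM in the replicate 1 libraries and 90.2 and 91.3 CPM in those of replicate 2. Fli1 ranged from 91.5 to 177 CPM in WT libraries, from 12.4 to 21.9 CPM in dKO replicate 1 and from 35.2 to 62.5 CPM in dKO replicate 2. Both genes were thus lower in every dKO library, and less so in replicate 2, whose 2 libraries also lay between the WT libraries and dKO replicate 1 on the first principal component. In edgeR neither gene passed the adjusted threshold of 0.05 in either comparison of genotypes (adjusted p = 0.0864 and 0.0538 for Erg, 0.0678 and 0.0562 for Fli1, without and with cytokines). DESeq2 called both genes in both comparisons (adjusted p = 0.00487 and 0.00109 for Erg, 0.00104 and 0.000882 for Fli1). Without both dKO replicate 2 libraries, the 2 with the higher dKO levels of both genes, 1 library was left in each dKO group. In that fit the log2 fold changes without and with cytokines were -2.27 and -2.55 for Erg and -2.96 and -2.92 for Fli1. All 8 endothelial markers reached 1 CPM in every group, but their summed level was 7766 to 7811 CPM in WT controls, 4411 to 4472 CPM in WT cells with cytokines, 1386 to 2760 CPM in dKO controls and 1244 to 2057 CPM in dKO cells with cytokines. Stellate cell and fibroblast markers, 9 of 12 of them at 1 CPM or more in every group, summed to 9220 to 10857 CPM in WT libraries and to 13400 to 19188 CPM in dKO libraries, most of it the matrix gene Dcn at 9024 to 14787 CPM. Of the 11 tested, 6 rose and 0 fell in dKO cells in either comparison. Of all genes, 13.4% rose and 9.66% fell without cytokines, and 18.6% and 15.4% with them. The median log2 fold change of the 11 was 3.63 without and 2.89 with cytokines, and Pdgfra was 268-fold higher without them. In each comparison 1 of the 11 lay below 0: Rgs5 without cytokines (-2.10, edgeR adjusted p = 0.139) and Acta2 with them (-0.55, edgeR adjusted p = 0.424). Cholangiocyte and mesothelial markers summed to at most 3.69 CPM in WT libraries and to 39.3 to 265 CPM in dKO libraries. Most of the dKO sum was Spp1, at 25.6 to 244 CPM. Sox9, Cdh1 and Krt19 were also higher than in WT libraries, while Epcam, Krt7 and Msln reached at most 0.249 CPM in dKO libraries. Hepatocyte markers summed to at most 4.05 CPM in WT and at most 26.5 CPM in dKO libraries, nearly all of it Trf. Albumin (Alb) was at 0 in all groups but dKO with cytokines. Leukocyte markers summed to at most 10.1 CPM and Ptprc, which encodes CD45, was at 0 in 3 groups. The leukocyte sums overlapped between genotypes. The sums of the other marker lists move with genotype in every comparison of dKO with WT cells below, and their part in those results was not tested. In bulk samples fewer cells of a type and less RNA per cell cannot be told apart.

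To compare genes with each other, levels were divided by exon length (CPM per kb of exon). On that scale Ephb4 led in WT control cells at 76.2 CPM per kb, followed by Efna1 at 31.4, Efnb2 at 25.9, Epha2 at 16.7, Efnb1 at 9.32, Epha4 at 1.85 and Ephb2 at 0.125 CPM per kb. The libraries of neighbours in this order did not overlap in that group. In dKO control cells Ephb4 at 49.5, Efnb2 at 45.2 and Efna1 at 30.3 CPM per kb followed each other with overlapping libraries, ahead of Efnb1 at 14.7, Epha2 at 10.7, Epha4 at 3.08 and Ephb2 at 0.433 CPM per kb. With cytokines Ephb4 led WT cells at 68.3 CPM per kb, ahead of Efnb2 at 31.9, while Efna1 at 18.7, Efnb1 at 14.8 and Epha2 at 14.8 CPM per kb overlapped. In dKO cells with cytokines Ephb4 at 52.8 and Efnb2 at 46.5 CPM per kb overlapped, as did Efna1 at 22.7, Epha2 at 13.8 and Efnb1 at 12.5 CPM per kb. Epha4 and Ephb2 were the lowest of the 7 in all 4 groups. Ephb4 made up 66.6% to 81.7% of the summed per-length level of all Eph receptors in a library, and Efnb2 31.0% to 58.8% of that of all ephrins.

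**Figure D1:**
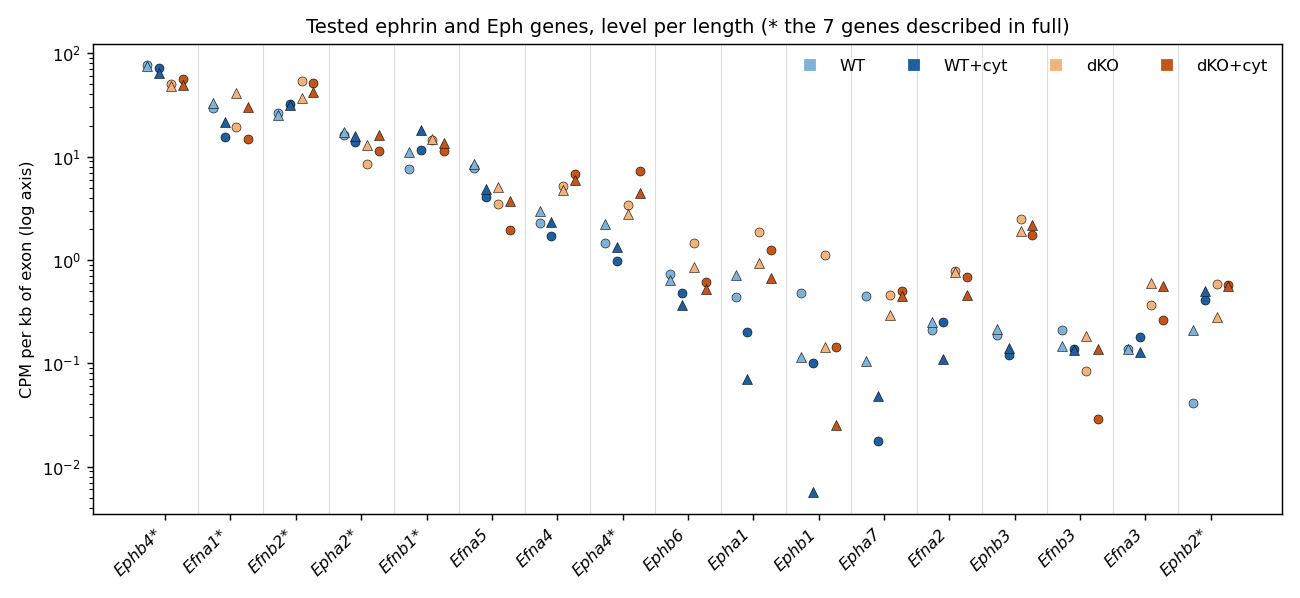
Level of the 17 tested ephrin and Eph genes in CPM per kb of exon on a log axis, by group, with a point for each library. Ephb4 is the highest of the 7 members in the mean of every group, from 49.5 to 76.2 CPM per kb, and Ephb2 the lowest, from 0.125 to 0.563 CPM per kb.

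ETS factors such as Erg and Fli1 bind DNA around a core of GGAA, and the 250 bases before the start of 3 members are shown because these members passed a test between genotypes. The sequences are RefSeq promoter windows of GRCm38.p6, written 5′ to 3′ along the gene's strand, with GGAA on either strand (GGAA or TTCC) in capitals. Efnb2 lies at chr8:8661243-8661492 on the minus strand, Ephb4 at chr5:137349859-137350108 on the plus strand and Epha4 at chr1:77515089-77515338 on the minus strand.
Efnb2: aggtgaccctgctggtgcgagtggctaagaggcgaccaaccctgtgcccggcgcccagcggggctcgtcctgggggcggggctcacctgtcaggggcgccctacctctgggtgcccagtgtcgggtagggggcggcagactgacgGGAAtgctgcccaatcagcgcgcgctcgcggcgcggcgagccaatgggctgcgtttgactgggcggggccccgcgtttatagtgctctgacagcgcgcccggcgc
Ephb4: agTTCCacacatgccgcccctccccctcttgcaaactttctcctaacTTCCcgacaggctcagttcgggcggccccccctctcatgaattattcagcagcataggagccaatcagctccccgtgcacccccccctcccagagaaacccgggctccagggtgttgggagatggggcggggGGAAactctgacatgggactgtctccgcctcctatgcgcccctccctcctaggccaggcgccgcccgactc
Epha4: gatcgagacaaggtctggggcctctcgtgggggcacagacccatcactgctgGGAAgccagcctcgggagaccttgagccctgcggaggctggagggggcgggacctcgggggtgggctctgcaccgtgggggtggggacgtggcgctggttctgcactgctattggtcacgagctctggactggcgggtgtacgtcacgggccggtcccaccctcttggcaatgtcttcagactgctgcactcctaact
The Efnb2 window held 1 match to GGAA, the Epha4 window 1 and the Ephb4 window 3. The longer word GGAAGT, which overlaps GGAA, matched 1 time in the Ephb4 window, 205 bases before the start, and 0 times in those of Efnb2 and Epha4. It also matched 1 time each in the windows of Efnb1 and Epha2, which were not called between genotypes in the main tests. CCGGAAGT matched in no window of the 7 members, and the NF-kB consensus matched 1 time, in the Ephb2 window. Of 32851 promoter windows of this length, 93.4% held GGAA on either strand with a median of 3 matches, 19.7% held GGAAGT, 2.88% held CCGGAAGT and 7.25% held the NF-kB consensus. A match is a description of the letters and not a binding site.

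Without cytokines, the comparison of dKO with WT cells addresses the effect of losing the ETS factors in resting cultures. Of the 7 members, 1 rose (Efnb2, a ligand) and 1 fell (Ephb4, its receptor), while 13.4% of all genes tested rose and 9.66% fell, so the members were called about as often as genes at large. The median log2 fold change of the 7 was 0.66, and that of all genes 0.02. With 2 libraries against 2, each call rests on the spread shared by the 4 groups. Whether groups overlapped is given below as a description, and the share of all genes without overlap was not counted.

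Efnb2, which encodes the transmembrane ligand ephrin-B2 (chr8:8617434-8661242, minus strand, GRCm38), measured 182 and 173 CPM in WT controls and stood at 367 and 252 CPM in dKO control cells. Both dKO libraries lay above both WT libraries, and dKO replicate 1 was the higher. That library also had the lower Erg level, the lower endothelial sum (1386 against 2760 CPM) and the higher stellate and fibroblast sum (17822 against 13400 CPM), whose part in the Efnb2 level was not tested. Efnb2 was 1.74-fold higher in dKO cells (log2 fold change 0.80, SE 0.19, edgeR adjusted p = 0.0293). The call was lost in 6 of 14 alternative analyses, which were those without WT control replicate 1 (adjusted p = 0.129), without WT control replicate 2 (0.146), without WT cytokine replicate 1 or 2 (0.0588 and 0.0590), without dKO control replicate 1 (0.104) and on the 4 libraries compared alone (0.0618).

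Ephb4, which encodes the receptor EphB4 (chr5:137350109-137378669, plus strand), stood at 355 and 352 CPM in WT control cells and at 235 and 225 CPM in dKO control cells. The groups did not overlap, and replicates 1 and 2 were close in each. Ephb4 was 1.54-fold lower in dKO cells (log2 fold change -0.62, SE 0.11, edgeR adjusted p = 0.0127). The call was lost without WT control replicate 1 (adjusted p = 0.0812) or WT control replicate 2 (0.0753), and held in the other 12 of 14 alternatives.

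A ratio within a library is not affected by scaling between libraries. The ratio of Efnb2 to Ephb4 per kb was 0.347 and 0.333 in WT control cells, 0.442 and 0.495 in WT cells with cytokines, 1.06 and 0.760 in dKO control cells and 0.915 and 0.843 in dKO cells with cytokines. All 4 dKO libraries lay above all 4 WT libraries, and only dKO control replicate 1 passed a ratio of 1.

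**Figure D2:**
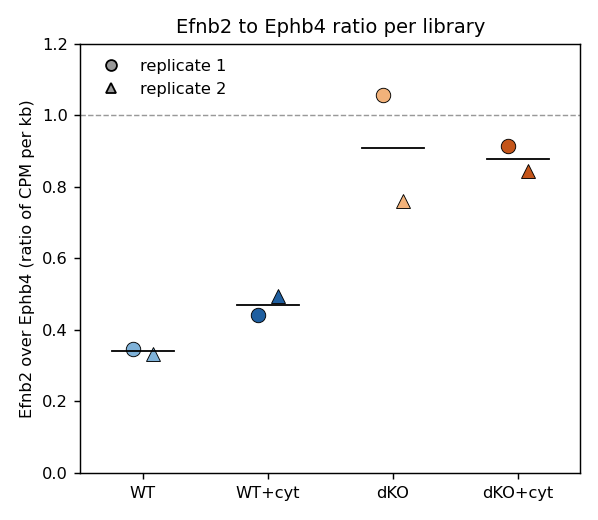
Ratio of Efnb2 to Ephb4, both in CPM per kb of exon, in each of the 8 libraries by group. The WT libraries lie between 0.333 and 0.495 and the dKO libraries between 0.760 and 1.06.

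The other ligands did not pass. Efna1, which encodes the lipid-anchored ligand of Epha2 (chr3:89271733-89281142, minus strand), measured 54.2 and 60.7 CPM in WT controls and stood at 35.5 and 75.3 CPM in dKO control cells. The dKO libraries lay on either side of the WT libraries, and the log2 fold change was -0.05 (edgeR adjusted p = 0.945). Efnb1, another transmembrane ligand (X chromosome, 99136130 to 99148991, plus strand), stood at 26.4 and 38.0 CPM in WT and at 49.9 and 51.7 CPM in dKO control cells, with no overlap (log2 fold change 0.66, SE 0.25, edgeR adjusted p = 0.100). Efnb1 passed in 1 of 14 alternatives, at an adjusted p of 0.0216.

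Among the other receptors, Epha2 (chr4:141301240-141329384, plus strand), the main receptor of Efna1 and linked to vessel growth, stood at 76.0 and 80.4 CPM in WT and at 39.5 and 61.0 CPM in dKO control cells. Its groups did not overlap, dKO replicate 1 was the lowest, and the log2 fold change was -0.64 (SE 0.24, edgeR adjusted p = 0.0983). Epha2 passed in 4 of 14 alternatives, among them DESeq2 (adjusted p = 0.0473) and edgeR with the replicate number as an added term. The others left out dKO control replicate 2, the dKO control library nearer to WT, alone or with its cytokine library. That left 1 library in the dKO control group. Epha4 (chr1:77367185-77515088, minus strand), a receptor that binds ephrins of both types, measured 11.7 and 18.0 CPM in WT and at 27.3 and 22.2 CPM in dKO control cells (log2 fold change 0.74, SE 0.31, edgeR adjusted p = 0.134). Ephb2 (chr4:136647539-136835988, minus strand), a receptor of type B ephrins, rested on few counts: 14 and 78 in WT control cells, or 0.52 and 2.63 CPM, and 165 and 85 in dKO control cells, or 7.37 and 3.53 CPM. The groups did not overlap for either gene, but the WT replicates of Ephb2 were far apart (log2 fold change 1.78, SE 0.70, edgeR adjusted p = 0.113). In DESeq2 Ephb2 passed (adjusted p = 0.0367), and leaving out 1 library gave log2 fold changes from 1.04 without WT control replicate 1 to 3.38 without WT control replicate 2, where it passed in edgeR (adjusted p = 0.0448).

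**Figure D3:**
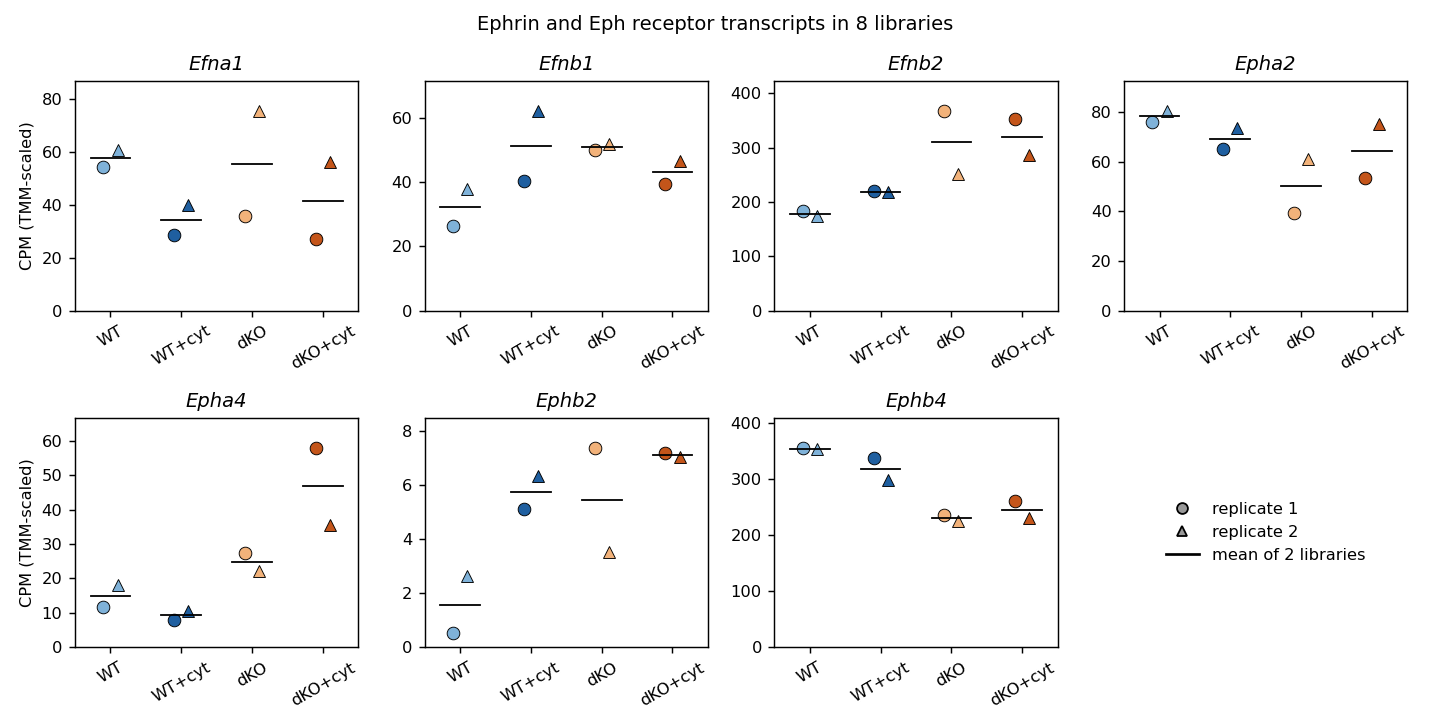
Level of each of the 7 members in CPM on scaled library sizes, a panel for each gene, by group with a point for each library and a line at the mean. Epha4 reaches 58.0 and 35.6 CPM in dKO cells with cytokines, above every other library, and Efnb2 and Ephb4 separate by genotype.

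With cytokines, the comparison asks what the loss of the ETS factors does in inflamed cultures. Of the 7 members, 1 rose (Epha4) and 1 fell (Ephb4), while 18.6% of all genes rose and 15.4% fell, again a share near that of all genes. Epha4 stood at 7.89 and 10.6 CPM in WT cells with cytokines and at 58.0 and 35.6 CPM in dKO cells with cytokines. The dKO libraries were the 2 highest of all 8 and the WT libraries the 2 lowest. Epha4 was 5.04-fold higher in dKO cells (log2 fold change 2.33, SE 0.33, edgeR adjusted p = 0.00518) and passed in all 14 alternatives, with log2 fold changes from 1.93 to 2.65.

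Ephb4 stood at 337 and 298 CPM in WT and at 260 and 230 CPM in dKO cells with cytokines, again without overlap. It was 1.29-fold lower (log2 fold change -0.37, SE 0.11, edgeR adjusted p = 0.0402), but the call was lost when any 1 of the 8 libraries was left out (adjusted p = 0.0510 to 0.218), without the filter on low counts (0.0542), on the 4 libraries alone (0.104) and without both dKO replicate 2 libraries (0.100). Efnb2 stood at 220.0 and 217.5 CPM in WT and at 352 and 287 CPM in dKO cells with cytokines. Its groups did not overlap, and it missed the threshold (log2 fold change 0.54, SE 0.19, edgeR adjusted p = 0.0659) while passing in 6 of 14 alternatives, DESeq2 among them (0.0373).

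The remaining 4 members did not pass with cytokines. Efna1 stood at 28.6 and 40.0 CPM in WT and at 27.1 and 56.0 CPM in dKO cells (log2 fold change 0.28, edgeR adjusted p = 0.668). Efnb1 stood at 40.4 and 62.1 CPM in WT and at 39.5 and 46.5 CPM in dKO cells (-0.25, adjusted p = 0.452). Both overlapped between genotypes, as did Epha2 at 65.0 and 73.4 CPM against 53.6 and 75.0 CPM (-0.11, adjusted p = 0.752). Ephb2 at 5.12 and 6.32 CPM against 7.18 and 7.02 CPM did not overlap (0.31, adjusted p = 0.741). For Efnb1 the direction without cytokines was thus not seen with them, a difference that is tested as an interaction below.

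**Figure D4:**
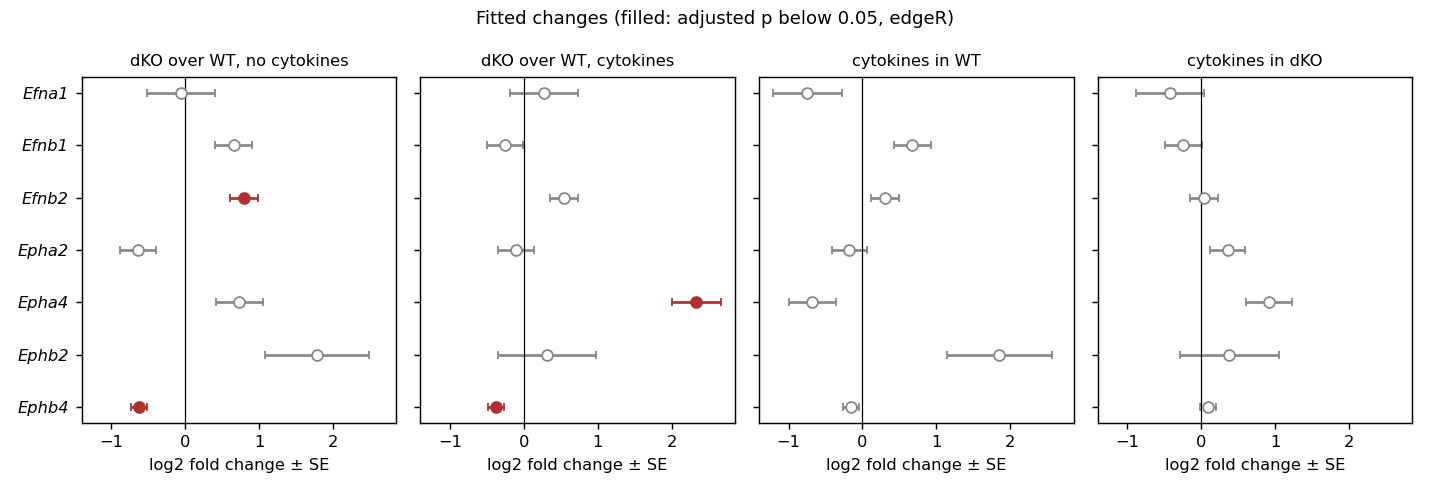
Log2 fold change of each member in 4 panels, dKO over WT without and with cytokines and cytokines over control in WT and in dKO, with bars of 1 standard error and filled points at an edgeR adjusted p below 0.05. Epha4 with cytokines at 2.33 is the largest change of the 7, and Ephb4 is below 0 in both comparisons.

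IL1B and TNFA were compared with control within each genotype. In WT cells 0 of 7 members passed in edgeR, against 17.4% of all genes, with 2 members at an unadjusted p under 0.05. DESeq2 called 1 of 7 (Ephb2, adjusted p = 0.0326), against 23.3% of the 14785 genes to which it gave an adjusted p. Libraries of the same number in a genotype share a stem in their names and deviated together, and with these pairs as a block edgeR called 5 of 7, 3 higher and 2 lower, against 19.3% of all genes higher and 18.5% lower. For members and family genes, values of that paired fit are given where they change a call.

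Among ligands in WT cells, Efna1 went from 54.2 to 28.6 CPM in replicate 1 and from 60.7 to 40.0 CPM in replicate 2. It was lower with cytokines in both pairs (log2 fold change -0.74, edgeR adjusted p = 0.322, and -0.76, SE 0.10, adjusted p = 0.000674 with the block). Efnb1 went from 26.4 to 40.4 CPM and from 38.0 to 62.1 CPM (0.67, adjusted p = 0.115, and 0.66, adjusted p = 0.000851 with the block). Efnb2 went from 182 to 220.0 and from 173 to 217.5 CPM, a smaller change (0.30, adjusted p = 0.324, and 0.0341 with the block). Efnb1 and Efnb2 were thus higher and Efna1 lower with cytokines in every WT pair.

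Among receptors in WT cells, Epha4 went from 11.7 to 7.89 CPM and from 18.0 to 10.6 CPM (log2 fold change -0.68, edgeR adjusted p = 0.194, and 0.0060 with the block). Ephb2 went from 0.52 to 5.12 CPM and from 2.63 to 6.32 CPM (1.85, SE 0.70, adjusted p = 0.124, and 0.0323 with the block). Both WT control libraries were below both cytokine libraries, and the ratio in replicate 1 was 9.90 against 2.40 in replicate 2. Epha2 (-0.18, adjusted p = 0.658) and Ephb4 (-0.16, adjusted p = 0.363) passed in neither fit.

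In dKO cells 0 of 7 members passed in edgeR, against 5.55% of all genes, with 1 at an unadjusted p under 0.05. DESeq2 also called 0 of 7, against 12.8% of the 14480 genes to which it gave an adjusted p. The paired fit called 3 of 7, 2 higher and 1 lower, against 12.7% and 11.3% of all genes. Epha4 went from 27.3 to 58.0 CPM in replicate 1 and from 22.2 to 35.6 CPM in replicate 2, higher in both pairs (log2 fold change 0.92, SE 0.31, edgeR adjusted p = 0.147, and 0.00189 with the block). Epha2 went from 39.5 to 53.6 and from 61.0 to 75.0 CPM (0.36, adjusted p = 0.433, and 0.0151 with the block), and Efna1 from 35.5 to 27.1 and from 75.3 to 56.0 CPM (-0.42, adjusted p = 0.652, and 0.0198 with the block). Efnb1 missed the threshold in both fits (-0.24, adjusted p = 0.623, and 0.0864 with the block).

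The ratio of Efna1 to its receptor Epha2 per kb, within a library, was 1.82 and 1.93 in WT control cells and 1.12 and 1.39 with cytokines. It was 2.30 and 3.15 in dKO control cells and 1.29 and 1.90 with cytokines. The ratio was lower with cytokines than in the control of the same number in all 4 pairs, and the WT and dKO controls did not overlap.

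The interaction asks whether the cytokine effect differs between genotypes. In edgeR 0 of 7 members and 0% of all genes passed, with 2 members and 1683 genes at an unadjusted p under 0.05. DESeq2 called 1 of 7, against 3.02% of the 12959 genes to which it gave an adjusted p. The paired fit called 3 of 7, 2 with a positive and 1 with a negative difference, against 3.24% and 2.80% of all genes. Epha4 had the largest positive difference of the 7, with a cytokine effect 1.60 higher on the log2 scale in dKO than in WT cells (SE 0.45, unadjusted p = 0.0105, edgeR adjusted p = 0.299, DESeq2 adjusted p = 0.0325, and 1.56, SE 0.18, adjusted p = 0.00461 with the block). It was lower with cytokines in both WT pairs and higher in both dKO pairs. Efnb1 went the other way, higher in both WT pairs and lower in both dKO pairs (-0.91, SE 0.35, unadjusted p = 0.0383, edgeR adjusted p = 0.439, and 0.00925 with the block). Epha2 passed with the block alone (0.53, edgeR adjusted p = 0.643, and 0.0345 with the block).

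**Figure D5:**
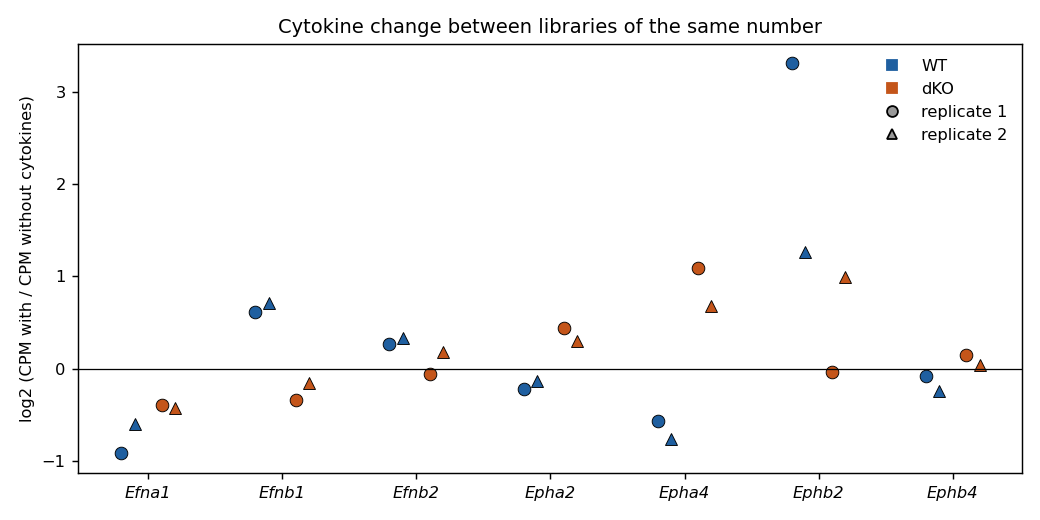
Log2 ratio of cytokine to control level of each member in the same-numbered libraries of WT and dKO cells, a point for each pair. Epha4 lies at -0.57 and -0.76 in WT and at 1.09 and 0.68 in dKO, and Efnb1 at 0.61 and 0.71 in WT and at -0.34 and -0.15 in dKO.

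Efnb1 lies on the X chromosome, and it was higher in replicate 2 than in replicate 1 of every group. Xist, the RNA that coats the inactive X chromosome of female cells, was chosen after its values were seen and stood at 0.48 to 1.32 CPM in the 4 replicate 1 libraries and at 171 to 633 CPM in the 4 replicate 2 libraries. Its part in the Efnb1 values was not tested.

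The rest of the family was given from the list of 22 genes. Without cytokines 4 of the 17 tested family genes rose and 1 fell in dKO cells (median log2 fold change 0.76), beside 13.4% and 9.66% of all genes. With cytokines 6 rose and 1 fell (0.54), beside 18.6% and 15.4% of all genes. Ephb3, another receptor of type B ephrins, stood at 1.26 and 1.42 CPM in WT and at 16.4 and 12.6 CPM in dKO control cells, and at 0.79 and 0.94 CPM against 11.5 and 14.6 CPM with cytokines. It was 10.8-fold higher without cytokines (log2 fold change 3.44, edgeR adjusted p = 0.00131) and 14.9-fold higher with them (3.90, adjusted p = 0.000946), and it passed in all 14 alternatives of both comparisons.

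Of the type A ligands, Efna4 was 3.18-fold higher in dKO than in WT cells with cytokines (log2 fold change 1.67, edgeR adjusted p = 0.00513, all 14 alternatives). The difference between genotypes was smaller without cytokines (0.91, adjusted p = 0.0367, 7 of 14 alternatives). A gene on the other strand covers 10.5% of the exon bases of Efna4, with a mean of 0.699 CPM over the 8 libraries against 2.73 to 10.9 CPM for Efna4 in single libraries. Efna2 passed in both comparisons (1.72, adjusted p = 0.0402, and 1.66, adjusted p = 0.0388), on 176 counts over all 8 libraries and in 8 and 4 of 14 alternatives. Of the type A receptors, Epha7 (3.81, adjusted p = 0.0158) and Epha1 (2.81, adjusted p = 0.0194) passed in dKO against WT cells with cytokines. The Epha7 call was lost without either WT cytokine library or dKO cytokine replicate 1, and the Epha1 call without WT cytokine replicate 2 or dKO cytokine replicate 1. Epha1 shares 6.01% of its exon bases with Zyx, at a mean of 302 CPM, so its counts are uncertain. In the unpaired edgeR fit Epha7 was also the only family gene called between cytokines and control in WT cells (-3.04, adjusted p = 0.0480, in 4 of 14 alternatives), with 120 and 31 counts in control and 4 and 12 with cytokines.

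With pairs as a block, Epha7 (-2.81, edgeR adjusted p = 0.0255), Epha1 (-2.10, adjusted p = 0.0101), Efna5 (-0.88, adjusted p = 0.00101) and Ephb1 (-2.58, adjusted p = 0.00263) passed for cytokines in WT cells, beside the 5 members. In dKO cells Efna5 (-0.63, edgeR adjusted p = 0.0112), Ephb1 (-2.85, adjusted p = 0.00201) and Ephb6 (-0.98, adjusted p = 0.0276) passed with the block, beside 3 members.

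Efna3, Efna5, Efnb3, Ephb1 and Ephb6 passed in no comparison of the unpaired edgeR fit, and DESeq2 called Efna5 in resting dKO against WT cells (-0.95, adjusted p = 0.0248) and for cytokines in WT cells (-0.88, adjusted p = 0.0443). Efna5, a type A ligand, had 852 and 1020 counts in WT control cells and 316 and 491 in dKO control cells. Ephb1 differed between replicates, with 90 and 24 counts in WT and 176 and 24 in dKO control cells. Epha3, Epha5, Epha6 and Epha10 had 0 counts in all 8 libraries and Epha8 had 1, where 3 counts over all libraries would be 0.0153 CPM, so they were not detectable at this depth. These limits cover counting error only.

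Intracellular partners of the family were a list of 40 adaptors, kinases, exchange factors and proteases, of which 38 were tested. Between dKO and WT cells, those called were mostly lower in dKO. Without cytokines 2 rose and 13 fell (median log2 fold change -0.27), beside 13.4% and 9.66% of all genes, with Vav3 (-1.47, edgeR adjusted p = 0.0469), Fyn (-1.28, 0.0495) and Itsn1 (-1.19, 0.00647) the largest. Fyn is a Src family kinase. In dKO against WT cells with cytokines 4 rose and 11 fell (-0.18), beside 18.6% and 15.4% of all genes. The largest were Vav3 (-1.56), Dvl2 (1.14, edgeR adjusted p = 0.00338) and Kalrn (-1.12, edgeR adjusted p = 0.0175).

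With cytokines against control in WT cells 3 partners rose and 2 fell, beside 9.72% and 7.69% of all genes, with the adaptor Nck1 (1.10, edgeR adjusted p = 0.00402) and the kinase Src (0.93, adjusted p = 0.00333) up and Itsn1 (-0.79, adjusted p = 0.0229) down. In dKO cells Src alone passed in the unpaired fit (0.57, edgeR adjusted p = 0.0242), beside 5.55% of all genes. In the interaction 0 of 38 partners passed in edgeR, with 7 at an unadjusted p under 0.05.

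Over the 8 libraries the genes most like each member were taken from 9285 genes by Pearson correlation of log2 CPM, as a description over libraries that share 4 groups. Efnb2 was most like Resf1, C3 and Tal1 (r = 0.99 each), and Ephb4 was most like Alg14, Qpctl and Lpar1 (r = 0.99 each). Epha4 was most like Parp6 and Grik5 (0.99 each) and Fggy (0.98), and Epha2 most like Cmas (0.99), Tnks2 (0.98) and Klhl3 (0.97). Efna1 was most like P2rx7 and Mdfi (0.95 each) and Depp1 (0.93), Efnb1 most like Lgals3 and Mgarp (0.91 each) and Hbs1l (0.90), and Ephb2 most like Tbca and Dda1 (0.95 each) and Nsmce1 (0.94).

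Among the members themselves, Efnb2 ran against Ephb4 (r = -0.81) and Epha2 (r = -0.82) and with Epha4 (r = 0.74) over the 8 libraries. Efnb1 ran with Ephb2 (r = 0.78). These values describe 8 points in 4 groups.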

How the data were processed

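The deposited values are raw counts per Ensembl gene for 8 libraries, with no normalization seen. FastQC 0.11.5, STAR 2.7.6a and GRCm38 are named in the submitters' processing notes, without their roles. The sources used here do not give the counting program, the annotation or its strand setting. An unstranded or a stranded kit was used per the labels, which do not say for which library, so overlapping genes may share counts. Of 52636 identifiers, 52403 carried a symbol.

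The main tests used edgeR 4.0.16 (R 4.3.3): TMM scaling, a low-count filter by group (15698 genes) and robust quasi-likelihood testing, all 8 libraries in 1 model of 4 groups (4 residual degrees of freedom, biological coefficient of variation 24.3%). In each of 5 contrasts, two-sided p-values were adjusted by Benjamini-Hochberg across the tested genes (threshold 0.05). Standard errors are the size of the log2 fold change divided by the square root of F. CPM values use TMM-scaled sizes, log2 CPM a prior count of 2. Gene positions and exon lengths are from GENCODE annotation of GRCm38, promoter windows from RefSeq.

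Libraries of the same number in a genotype were taken as pairs, because their names share a stem and their deviations from the group means correlated across genes (r = 0.43 in WT and 0.69 in dKO, against 0.02 to 0.13 between genotypes). The paired fit has that number within genotype as a block. This adds a term for each genotype and so leaves fewer residual degrees of freedom than the main fit. Alternatives were DESeq2 1.42.0, its size factors in edgeR, no filter, blocks, only the 4 libraries compared, leaving out each library, and leaving out both dKO replicate 2 libraries. The fits were tested on simulated data first. The members and lists were chosen with earlier results of these data known. Named besides the 7 members were the other family genes, Erg and Fli1, the 3 partners called with the largest change at 1 CPM or more, and the 3 genes most like each member.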

Additional observations from a re-analysis of the deposited data

Results flagged for a closer look

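For Epha4, Efnb1, Epha2 and Ephb4 the cytokine effect went in opposite directions in the 2 genotypes in every pair. The rule was applied to the 7 members alone, so no share of all genes stands beside them. Their number is therefore not read as a trait of the members. Epha4 was lower with cytokines in both WT pairs and higher in both dKO pairs, with an effect 1.60 higher in dKO on the log2 scale (edgeR adjusted p = 0.299, and 0.00461 with pairs as a block). Efnb1 was higher in both WT pairs and lower in both dKO pairs, with a difference of -0.91 (edgeR adjusted p = 0.439, and 0.00925 with the block). Epha2 was lower in both WT pairs and higher in both dKO pairs, with a difference of 0.53 (edgeR adjusted p = 0.643, and 0.0345 with the block). Ephb4 did the same by less, with a difference of 0.25 (edgeR adjusted p = 0.631). Its log2 ratios were -0.08 and -0.24 in the WT pairs and 0.15 and 0.03 in the dKO pairs. When 1 library at a time was left out, its fitted cytokine change in dKO cells ran from -0.0039 to 0.18.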

How the results depend on the processing

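Of 490 values (7 members, 5 contrasts, 14 alternatives), 422 kept their direction and side of the threshold, 32 passed only in the alternative, 19 no longer passed and 17 changed sign. With 2 libraries a group, precision rests on the spread shared by 4 groups, and with few counts Ephb2 is limited by depth.

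DESeq2 called 4 members in resting dKO against WT cells, for which its share of all genes is not given here. It called 1 member between cytokines and control in WT cells and 1 in the interaction. Beside these stood 23.3% and 3.02% of the genes to which it gave an adjusted p. In all DESeq2 called 1852 genes for cytokines in dKO cells and 391 in the interaction. Without the filter 75 genes passed in the interaction. With the replicate number as a block over all libraries, 4 members passed in resting cells, Efnb1 (adjusted p = 0.0216) and Epha2 (0.0213) among them. Efna3 (0.0463) and Efna5 (0.0185) passed there too, and the share of all genes is not given here for that fit. The labels tie no number to an animal across genotypes, but Xist follows the number in both. With pairs within genotype as a block, 5943, 3769 and 947 genes and 5, 3 and 3 members passed for cytokines in WT, cytokines in dKO and the interaction. The block changed no other count of members by over 1.5 times. On the 4 libraries compared alone, 2266 genes and 1 member passed in resting cells, 1 member with cytokines, 4585 genes and 2 members for cytokines in WT cells, and 1 gene for cytokines in dKO cells. Without both dKO replicate 2 libraries, 5602 genes passed in resting cells, 4417 genes and 2 members for cytokines in WT, 1339 genes for cytokines in dKO and 193 in the interaction, and Efna1 with cytokines (-0.33) and Ephb2 (-0.035) and Efnb2 (-0.059) for cytokines in dKO changed sign.

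Leaving out 1 library at a time, 527 to 3783 genes and 0 to 3 members passed in resting cells, 1621 to 5523 genes and 1 to 2 members with cytokines, 413 to 2749 genes and 0 to 1 members for cytokines in WT, 130 to 731 genes for cytokines in dKO and 0 to 41 in the interaction. Values that changed sign there, none called, were Efna1 in resting cells (-0.69 to 0.38); Efna1 (-0.33 to 0.70), Efnb1 (-0.52 to 0.090) and Epha2 (-0.36 to 0.11) with cytokines; Efna1 (-1.04 to 0.23), Efnb2 (-0.20 to 0.34), Ephb2 (-0.054 to 1.00) and Ephb4 (-0.0039 to 0.18) for cytokines in dKO; and Efna1 (-0.27 to 0.97) and Efnb2 (-0.50 to 0.060) in the interaction. The cause was not tested. CPM on total counts moved 6 of 28 mean levels by more than their SD, and within-library ratios are not affected.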

Other observations

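Besides Efnb2, 12 arterial genes were tested, and without cytokines 3 were higher (Gja4, Unc5b and Bmx) and 4 lower (Notch1, Jag1, Nrp1 and Acvrl1) in dKO cells, all named after their values were seen, beside 13.4% and 9.66% of all genes. Gja4, a gap junction gene, was 11.1-fold higher (edgeR adjusted p = 0.0146), and Jag1, a Notch ligand, was 2.87-fold lower (adjusted p = 0.00545). With cytokines 3 were higher (the same Gja4, Unc5b and Bmx) and 3 lower (Notch1, Jag1 and Nrp1), beside 18.6% and 15.4% of all genes. Besides Ephb4, 2 of 6 venous genes fell in each comparison, against the same shares of all genes, Emcn (3.63-fold lower without cytokines) and Vwf (2.44-fold lower without and 2.67-fold lower with them). Emcn is also among the 8 endothelial markers, whose summed level was lower in dKO cells. The part of that sum in these results was not tested.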
